A study of Mus musculus with 6 samples.

Results

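Keratins were examined as a family in medullary thymic epithelial cells (mTECs), the cells of the thymic medulla, in which many otherwise tissue-restricted genes are expressed and shown to maturing T cells. The members were all genes of the deposited array matrix whose symbol is Krt followed directly by a digit, with keratin-associated proteins left out. This gave 42 genes, read by 50 probes, among 27804 genes and unnamed probes in the matrix. Each gene was represented by its probe of highest mean over the 6 columns, and 8 genes had 2 probes. All 42 passed the filter on dim probes, which required detection above background on 3 or more of the 6 arrays; 41 were well above background on all 6, and Krt42 was on 3. By the matrix's own annotation 23 of the genes lie on chromosome 11 and 19 on chromosome 15.

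Keratins are the intermediate filament proteins of epithelial cells. A filament is built from pairs of 1 type I (acidic) and 1 type II (basic or neutral) keratin, so the genes are usually read in pairs. Krt8 and Krt18 are the pair of simple, single-layered epithelia, Krt5 and Krt14 that of the basal layer of stratified epithelia, and Krt1 and Krt10 that of the layers above it. In the thymus, Krt5 and Krt14 are used to mark the medulla and Krt8 and Krt18 are strong in the cortex, while Krt1 and Krt10 mark late-stage mTECs and Hassall's corpuscles. Hair and inner root sheath keratins are made in the hair follicle.

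mTECs of mice lacking Mbd1 (MBD1 KO) were compared with mTECs of MBD1 WT mice, both at 30 days of age and with 3 arrays each. Mbd1 is a nuclear protein that recognises DNA carrying methylated CpG dinucleotides. Per the labels, cells were sorted as live EPCAM+ and Class II+ and as negative for CD45, CD11c and Ly51, and per the design text 4 biological replicates were made per genotype, of which 1 each was dropped by the authors. The sources used here give neither the strain, nor the deleted part of Mbd1, nor whether a replicate was 1 mouse or a pool. The p-values therefore measure the spread between these samples, which may be technical. Cy3-labelled amplified RNA was measured on 1-colour Agilent mouse arrays.

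The genotypes below are those of the matrix columns, KO 1 to 3 and WT 1 to 3. The Mbd1 probe A_51_P143224 read 5.637, 5.612 and 5.605 (log2) in the KO columns, against 8.83, 8.60 and 9.0 in the WT columns. The difference was -3.19 (SE 0.19, limma adjusted p = 5.3e-05). For this probe the KO columns lay near the 95th percentile of probes never detected (5.46 to 5.57), where a size is uncertain. Of the other Mbd1 probes, A_52_P158923 differed by -2.96 and A_52_P131423 by -0.98. The latter read 5.47 to 5.67 in the KO columns and 6.34 to 6.75 in the WT columns. The titles of the scanner files did not match these columns. By rank over probes, 5 columns were identical to a scanner array, in 0 cases to the one sharing the column's name and in 4 cases to one named for the opposite genotype. On the arrays titled KO 1 to 3 probe A_51_P143224 had processed intensities of 356, 17.2 and 682, against 20.9, 305 and 15.6 on those titled WT 1 to 3. Every direction given here therefore depends on the column names. Of the listed medullary markers 6 of 8 were found by symbol, among them Aire, Cd80, Cldn4 and H2-Aa, and all 6 were well above background on all 6 arrays. Markers of other cells were detected as well. All 7 thymocyte markers were positive in the KO minus WT difference, against 49.3% of all genes tested. Their summed level was 11.85 to 12.02 (log2) in the KO columns and 11.07 to 11.35 in the WT columns. In 4 of the 7 the columns did not overlap. Over all genes tested, 4.25% were higher and 4.07% lower in the KO columns without overlap. The 5 cortical epithelial markers found by symbol did not move one way: Prss16 (0.52) and Ccl25 (0.43) were higher and Ly75 (-0.27) lower in the KO columns without overlap, while Ctsl (0.08) and Enpep (0.05) overlapped. Their sum, led by Ccl25, was 14.97 to 15.38 in the KO and 14.57 to 14.91 in the WT columns. Of the markers of other blood and vessel cells, Igj of plasma cells (1.74), Itgax (0.47) and Tyrobp (0.70) of myeloid cells and Kdr of endothelium (0.36) were higher, and Hbb-b1 of erythroid cells (-1.35) lower, in the KO columns without overlap. No listed marker was at 0, and 0 of them passed after adjustment. Their part in the keratin values was not tested. In sorted bulk samples, fewer cells of a kind and less RNA per cell cannot be told apart.

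Promoter sequences were looked up because Mbd1 binds methylated CpG, and 5 are shown. Krt18 and Krt14 stand for the pairs that mark cortex and medulla, Krt2 and Krt27 had among the highest KO minus WT differences, and Krt84 had the lowest of those with an entry. Of the 42 genes, 28 matched an entry by symbol, with 29 promoters in all. Each runs from 250 bases before to 50 bases after the annotated start, read 5′ to 3′ on the gene's strand, in RefSeq's GRCm38.p6 annotation. The positions are chr15:102027966-102028265, plus strand, for Krt18, chr11:100205981-100206280, minus strand, for Krt14, chr15:101818120-101818419, minus strand, for Krt2, chr11:99351069-99351368, minus strand, for Krt27, and chr15:101532771-101533070, minus strand, for Krt84. Capitals mark CpG dinucleotides and the letters TATAAA.
Krt18: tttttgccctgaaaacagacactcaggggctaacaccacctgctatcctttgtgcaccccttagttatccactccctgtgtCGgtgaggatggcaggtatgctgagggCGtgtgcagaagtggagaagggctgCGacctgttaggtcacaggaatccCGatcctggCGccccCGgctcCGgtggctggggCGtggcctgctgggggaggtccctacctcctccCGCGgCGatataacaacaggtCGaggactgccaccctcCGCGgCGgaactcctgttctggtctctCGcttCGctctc
Krt14: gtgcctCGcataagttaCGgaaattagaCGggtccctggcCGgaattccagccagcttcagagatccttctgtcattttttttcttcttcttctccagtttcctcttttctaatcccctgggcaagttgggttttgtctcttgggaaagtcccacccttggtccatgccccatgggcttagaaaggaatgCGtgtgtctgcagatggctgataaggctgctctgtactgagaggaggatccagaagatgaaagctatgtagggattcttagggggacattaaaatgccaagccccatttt
Krt2: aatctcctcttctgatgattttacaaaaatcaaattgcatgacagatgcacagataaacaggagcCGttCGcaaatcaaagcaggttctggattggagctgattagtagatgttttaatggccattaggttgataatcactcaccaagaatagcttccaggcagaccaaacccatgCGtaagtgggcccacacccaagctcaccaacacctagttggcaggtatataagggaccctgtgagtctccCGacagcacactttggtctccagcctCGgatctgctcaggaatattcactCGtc
Krt27: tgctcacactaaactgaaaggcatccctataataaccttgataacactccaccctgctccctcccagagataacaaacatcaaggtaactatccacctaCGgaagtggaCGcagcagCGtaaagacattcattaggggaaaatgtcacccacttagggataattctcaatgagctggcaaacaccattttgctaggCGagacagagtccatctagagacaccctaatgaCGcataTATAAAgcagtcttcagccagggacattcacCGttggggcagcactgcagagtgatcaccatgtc
Krt84: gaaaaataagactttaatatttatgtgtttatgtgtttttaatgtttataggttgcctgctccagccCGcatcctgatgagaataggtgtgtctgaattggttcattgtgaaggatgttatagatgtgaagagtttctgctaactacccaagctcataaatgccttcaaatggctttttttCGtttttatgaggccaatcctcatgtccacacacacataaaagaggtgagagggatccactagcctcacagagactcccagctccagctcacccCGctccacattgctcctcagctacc

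The keratin promoters were poor in CpG. The median was 5 CpG per 300 bases over the 29 keratin promoters, against 7 over all 32851 promoters in the table. Krt7 with 21 and Krt18 with 17, both genes of simple epithelia, were the keratins above 10 CpG, which is 6.9% of keratin promoters and 41.4% of all. Among the promoters shown, Krt2 and Krt27 held 6 CpG each, Krt14 held 5 and Krt84 held 3. The motif TATAAA, the core of the TATA box that places the start of transcription, was searched on the gene's own strand. It was found in 14 of 29 keratin promoters (48.3%), against 8.32% of all promoters, and with its first letter 20 to 40 bases before the start in 10 of 29 (34.5%), against 1.99% of all. Searched on both strands it was in 15 keratin promoters (51.7%) and 13.6% of all. Of the promoters shown, that of Krt27 held it, 15 bases before the start, and the others did not. It stood in 9 of 12 promoters of hair and inner root sheath keratins, in 3 of 12 of stratified and in 2 of 5 of simple keratins. Most of these genes lie in clusters of related copies, so the promoters are not independent.

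**Figure D1:**
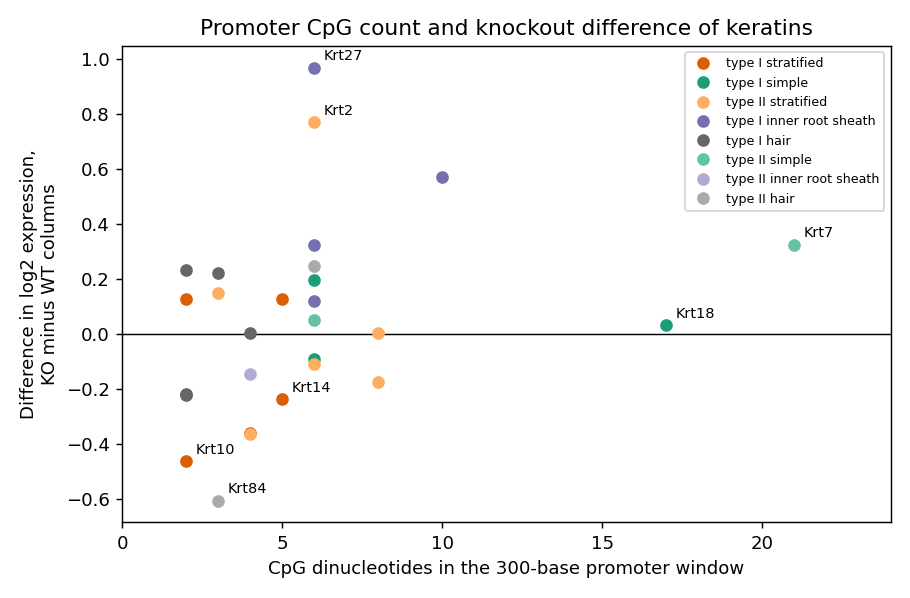
CpG dinucleotides in the 300-base promoter window (x axis) against the KO minus WT difference in log2 expression (y axis) for the 28 keratins with an entry, coloured by keratin group. Krt18 (17 CpG, difference 0.03) and Krt7 (21 CpG, 0.33) stand apart on the x axis, while Krt27 (0.97), Krt2 (0.77) and Krt84 (-0.61) have 6, 6 and 3 CpG.

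None of the 42 keratins passed the test between KO and WT columns. With limma's moderated test and Benjamini-Hochberg adjustment over all genes, 0 of 42 keratins had an adjusted p under 0.05, against 0.164% of the 21989 genes and unnamed probes tested (0.15% higher and 0.0136% lower), and the smallest adjusted p of a keratin was 0.352, for Krt2. At an unadjusted p of 0.05, 6 of 42 keratins passed (14.3%), against 4.26% of all. The KO and WT columns did not overlap for 10 keratins (23.8%), against 8.33% of all; 5 of these were higher (4.25% of all genes were) and 5 lower in the KO columns (4.07% of all genes were). Of the 42 differences 21 were positive and 21 negative, with a median of -0.01 on the log2 scale, close to the median of -0.0045 over all genes tested. The differences ran from -0.69 (Krt6a) to 0.97 (Krt33a). For 32 of the 42 keratins the 95% interval of the difference lay within 2-fold in either direction, and the other 10 included Krt10, Krt1, Krt2, Krt27, Krt33a and Krt84. In the authors' deposited table the smallest FDR of a keratin probe was 0.454, for Krt2.

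**Figure D2:**
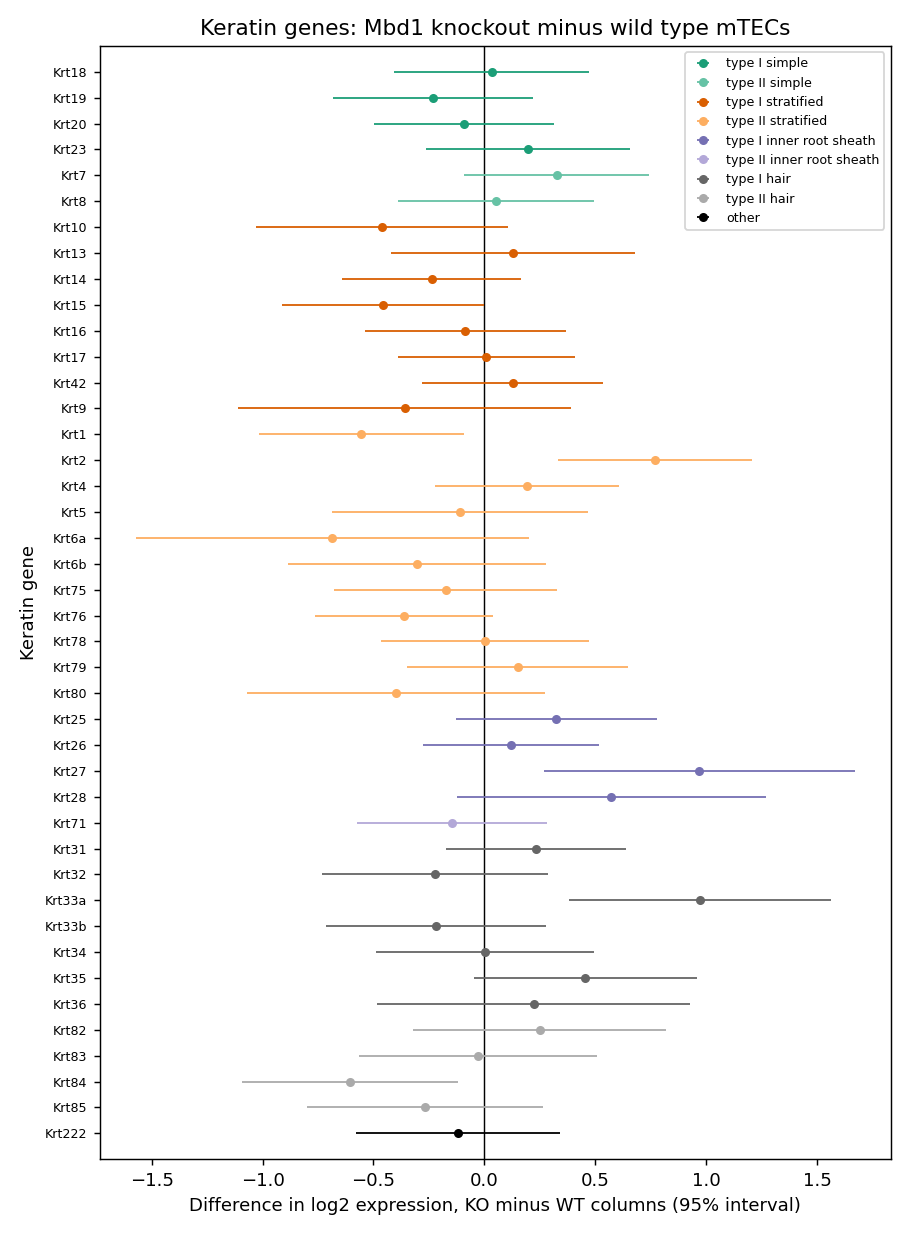
Difference in log2 expression, KO minus WT columns, for all 42 keratins (points) with the 95% interval from limma (lines), coloured by group. Intervals of Krt2, Krt27 and Krt33a lie above 0 and those of Krt1, Krt15 and Krt84 below it, and 0 keratins passed after adjustment over all genes.

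The basal pair that marks the thymic medulla did not pass the test. Krt5, the basal type II keratin, read 12.67, 12.74 and 13.52 in the KO columns, against 13.42, 12.86 and 12.98 in the WT columns. Its groups overlapped, with KO 3 the highest column of all 6 and KO 1 the lowest, and the difference was -0.11 (SE 0.26, 95% interval -0.69 to 0.47). Krt14, the type I partner of Krt5, read 13.07, 12.87 and 13.10 in the KO columns, against 13.28, 13.30 and 13.17 in the WT columns. All 3 KO columns lay below all 3 WT columns, but the gap was small beside the pooled error, and the difference of -0.24 did not pass (SE 0.18, 95% interval -0.64 to 0.17, limma adjusted p = 0.999).

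Krt8 and Krt18, the pair of simple epithelia, had differences near 0 and overlapping columns. Krt8 read 15.01, 15.34 and 15.30 in the KO columns, against 15.37, 15.15 and 14.97 in the WT columns, a difference of 0.05 (SE 0.20, 95% interval -0.39 to 0.49). Its second probe, also well above background on every array, differed by 0.07. Krt18 read 14.29, 14.13 and 14.55 in the KO columns, against 14.33, 14.43 and 14.11 in the WT columns, a difference of 0.03 (SE 0.20, 95% interval -0.41 to 0.47). All 3 KO columns of Krt8 lay inside the range of its WT columns, and those of Krt18 did so apart from KO 3, the highest of its 6 columns.

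The remaining simple keratins were Krt7, Krt19, Krt20 and Krt23. At an unadjusted p of 0.05, 0 of the 6 simple keratins passed, against 4.26% of all genes tested. Krt7, a type II keratin of ducts and glands, read 11.689, 11.915 and 12.004 in the KO columns, against 11.471, 11.686 and 11.473 in the WT columns, without overlap by a margin in the third decimal (difference 0.33, SE 0.19). Its second probe went the other way, at -0.26, so the probes of Krt7 disagree. Krt19, a small type I keratin of simple and ductal epithelia, read 10.73, 10.72 and 10.62 in the KO columns, against 10.78, 11.25 and 10.73 in the WT columns. Column WT 2 stood above the other 5 for Krt19, and the difference was -0.23 (SE 0.20), or -0.067 without WT 2. Krt20, a keratin of intestinal epithelium, differed by -0.09 and Krt23 by 0.20, with overlapping columns in both.

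Of the 19 stratified keratins 0 passed after adjustment. Their differences were negative for 12 and positive for 7 (63.2% negative, against 50.7% of all genes tested), with a median of -0.17. Without column KO 2, 10 of the 19 were negative and the median was -0.035. At an unadjusted p of 0.05, 3 of the 19 passed (15.8%), against 4.26% of all genes tested. These were Krt1 and Krt15 on the lower side and Krt2 on the higher side. Krt1, the type II keratin of the suprabasal epidermis, read 11.17, 10.77 and 10.98 in the KO columns, against 11.35, 11.41 and 11.81 in the WT columns. Every KO column lay below every WT column, and the difference was -0.55 (SE 0.21, 95% interval -1.01 to -0.09, limma adjusted p = 0.963). The second Krt1 probe, well above background on 5 arrays, differed by -0.10; it read 5.62 to 5.91 in the KO columns and 5.74 to 6.08 in the WT columns, close to the level of probes never detected.

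Krt10, the type I partner of Krt1, read 13.23, 13.85 and 12.78 in the KO columns, against 13.78, 13.74 and 13.72 in the WT columns. The WT columns were nearly equal (mean 13.75 ± 0.03, SD, n = 3) while the KO columns spread on both sides of them (mean 13.28 ± 0.53, SD, n = 3), with KO 2 the highest of all 6 columns and KO 3 the lowest. The difference was -0.46 (SE 0.26, 95% interval -1.03 to 0.11, limma adjusted p = 0.999), and the other probe of Krt10 differed by -0.29. Without column KO 3 the difference was -0.21, and without KO 2 it was -0.74.

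Krt2, a type II keratin of the uppermost living epidermal layers that also pairs with Krt10, had the smallest p of the family. It read 9.96, 10.20 and 10.48 in the KO columns, against 9.44, 9.45 and 9.44 in the WT columns. All KO columns lay above all WT columns, which differed from each other by 0.01 or less, and the difference was 0.77 (SE 0.20, 95% interval 0.33 to 1.21), 1.71-fold, with a limma adjusted p of 0.352. The second Krt2 probe read 5.84 to 5.98 in the KO columns and 5.75 to 5.98 in the WT columns, close to the level of probes never detected, and differed by 0.09; the mean over both probes differed by 0.43. Krt2 and Krt1 thus had differences of opposite sign although both pair with Krt10; this contrast was noticed after the values were seen and was not tested.

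Among basal and stress-linked type I keratins, Krt15, a keratin of basal cells, read 10.16, 9.78 and 10.36 in the KO columns, against 10.59, 10.64 and 10.45 in the WT columns. Its columns did not overlap, with KO 2 the lowest, and the difference was -0.46 (SE 0.21, limma adjusted p = 0.999); without KO 2 it was -0.30. Krt17, induced in injured and activated epidermis, was among the steadiest keratins, at 14.27, 14.30 and 14.41 in the KO columns, against 14.35, 14.39 and 14.20 in the WT columns, a difference of 0.01 (SE 0.18, 95% interval -0.39 to 0.41). Krt16, induced along with Krt17, differed by -0.09. Their type II partners Krt6a and Krt6b differed by -0.69 (SE 0.40) and -0.30 (SE 0.26). Krt6a had the widest spread within the genotypes of any keratin tested, reading 8.16, 6.92 and 6.30 in the KO columns, against 7.33, 8.03 and 8.08 in the WT columns, so that KO 1 was the highest and KO 3 the lowest of all 6. The matrix names both Krt6a and Krt6b for the Krt6b probe, so these near copies may share signal.

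The other stratified keratins gave overlapping columns with the exception of Krt76. Krt76, a type II keratin of the oral lining, read 9.48, 9.34 and 9.29 in the KO columns, against 9.71, 9.66 and 9.83 in the WT columns, a difference of -0.36 (SE 0.18, unadjusted p = 0.0729 by limma). Krt4 and Krt13, the pair of the oesophagus and other internal stratified linings, differed by 0.19 (SE 0.19) and 0.13 (SE 0.25). Krt9, a keratin of palm and sole skin, differed by -0.36 with a range of 1.51 over the 6 columns, and Krt80 by -0.40, where WT 1 at 9.81 stood above the other 5 columns (8.42 to 8.85). Krt75, Krt78 and Krt79 differed by -0.17, 0.00 and 0.15. Krt42 read 5.62 to 5.84 in the KO columns and 5.54 to 5.74 in the WT columns, near the level of probes never detected.

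**Figure D3:**
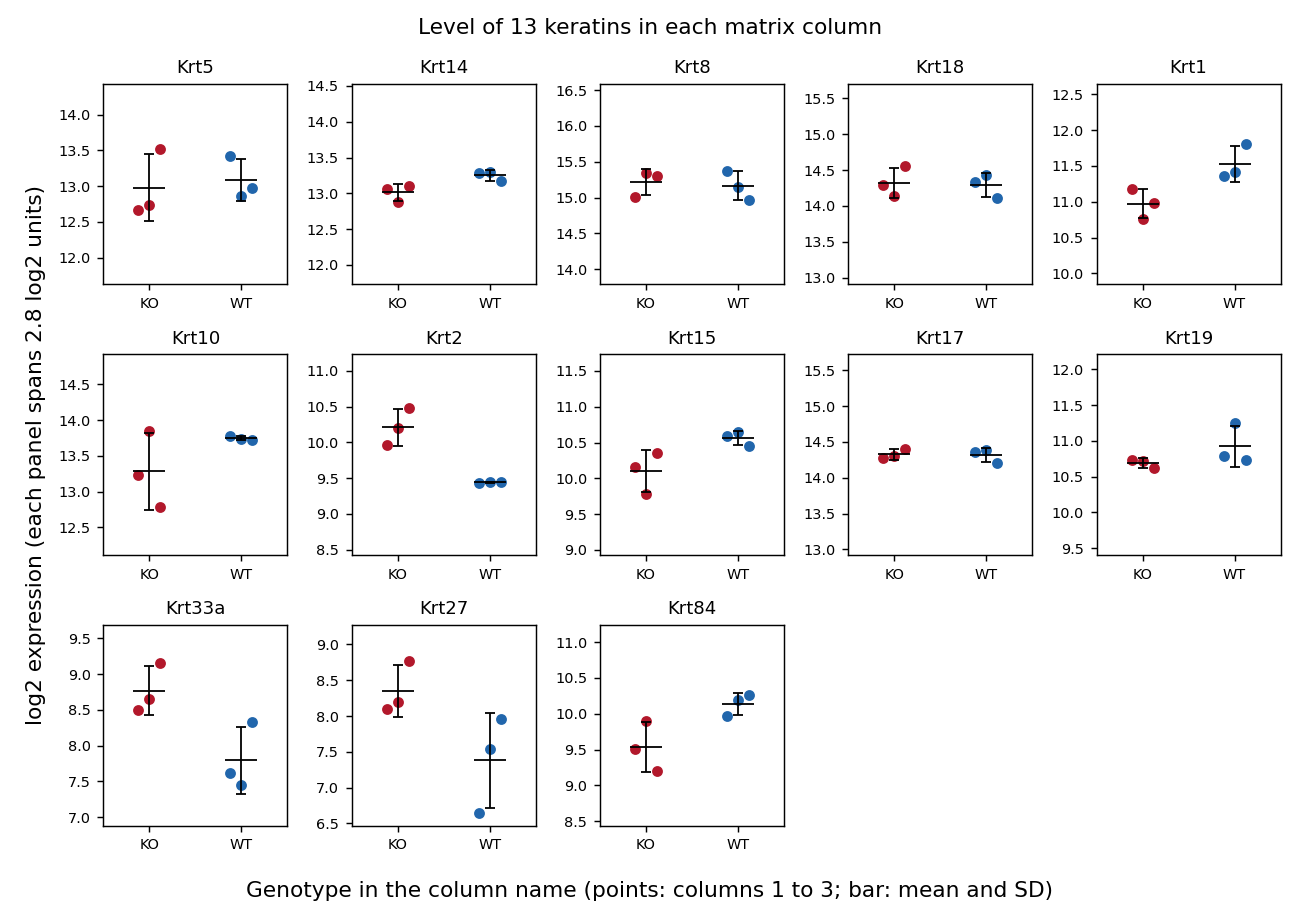
log2 expression (y axis, each panel with its own level and the same span) of 13 keratins in the KO (left, red) and WT (right, blue) columns, with the mean and SD of 3 columns. The KO points lie above all WT points for Krt2, Krt33a and Krt27 and below them for Krt1, Krt14, Krt15 and Krt84, and mix with them for Krt5, Krt8, Krt18, Krt10, Krt17 and Krt19.

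Hair follicle keratins were detected in mTECs of both genotypes. The 4 type I inner root sheath keratins Krt25, Krt26, Krt27 and Krt28 were all positive, against 49.3% of all genes tested, with a median of 0.45. At an unadjusted p of 0.05, 1 of the 4 passed, against 4.26% of all genes tested. Krt27 read 8.10, 8.19 and 8.76 in the KO columns, against 6.65, 7.54 and 7.95 in the WT columns. All KO columns lay above all WT columns, with WT 1 far the lowest, and the difference was 0.97 (SE 0.32, 95% interval 0.27 to 1.67, limma adjusted p = 0.749). Without column WT 1 it was 0.61. Krt28, which lies beside Krt27 in the chromosome 11 cluster, read 7.71, 7.07 and 8.44 in the KO columns, against 6.83, 7.42 and 7.25 in the WT columns, and overlapped. Krt25 and Krt26 differed by 0.32 and 0.12. Krt71, the inner root sheath type II keratin in the matrix, differed by -0.15 (SE 0.20).

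Of the 7 type I hair keratins 5 were positive, and of the 4 type II hair keratins 1 was. Krt33a, a type I keratin of the hair cortex, read 8.49, 8.66 and 9.15 in the KO columns, against 7.61, 7.45 and 8.32 in the WT columns. KO and WT columns did not overlap, the highest WT column lying just under the lowest KO column, and the difference was 0.97 (SE 0.27, 95% interval 0.38 to 1.56, limma adjusted p = 0.450). Krt33b, its near copy, gave -0.22 at its brighter probe and 0.38 at the other, so that values within this pair of similar genes are uncertain. Krt84, a type II hair keratin also made in the tongue, read 9.51, 9.89 and 9.19 in the KO columns, against 9.96, 10.19 and 10.26 in the WT columns. All KO columns lay below all WT columns, by the least in KO 2, and the difference was -0.61 (SE 0.22, 95% interval -1.09 to -0.12, limma adjusted p = 0.918). Krt31 was also without overlap, at 6.530 to 6.792 in the KO columns and 6.425 to 6.527 in the WT columns (difference 0.23, SE 0.18). Krt35 differed by 0.46 (SE 0.23), Krt36 by 0.22, Krt32 by -0.22, Krt34 by 0.00, Krt82 by 0.25 and Krt85 by -0.27. The probe labelled Krt83, which the matrix also ties to Krt81 and Krt86, differed by -0.03. Krt222, a keratin-like gene placed in none of these groups, differed by -0.12.

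By type, the 23 type I keratins with a group had a median of 0.03 and the 18 type II keratins one of -0.13. Of these, 3 of 23 and 3 of 18 passed at an unadjusted p of 0.05, against 4.26% of all genes tested. The genes on chromosome 11 had a median of 0.01 and those on chromosome 15 one of -0.11. The 2 types are coded on different chromosomes except Krt18, so type and cluster cannot be told apart.

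The spread within genotypes was as wide for keratins as for other genes, with a median SD of 0.256 over the 42 keratins and 0.264 over all genes tested. It ranged from 0.068 for Krt26 to 0.731 for Krt6a. Column KO 3 was the highest of the 6 for 15 of the 42 keratins, and column KO 2 the lowest for 13. The highest and lowest columns were not counted over all genes, so these counts only describe the keratins. Among the 19 stratified keratins KO 2 was the lowest for 10, and their median in KO 2 lay at -0.32 from each gene's mean over the 6 columns, against -0.06 in KO 1 and 0.09 in KO 3. The WT columns lay at -0.04, 0.10 and 0.04 on the same scale. Among the 16 hair and inner root sheath keratins WT 1 was the lowest for 7, at a median of -0.30, against -0.00 in WT 2 and 0.07 in WT 3. The medians over all genes tested lay between -0.02 and 0.01 in every column.

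**Figure D4:**
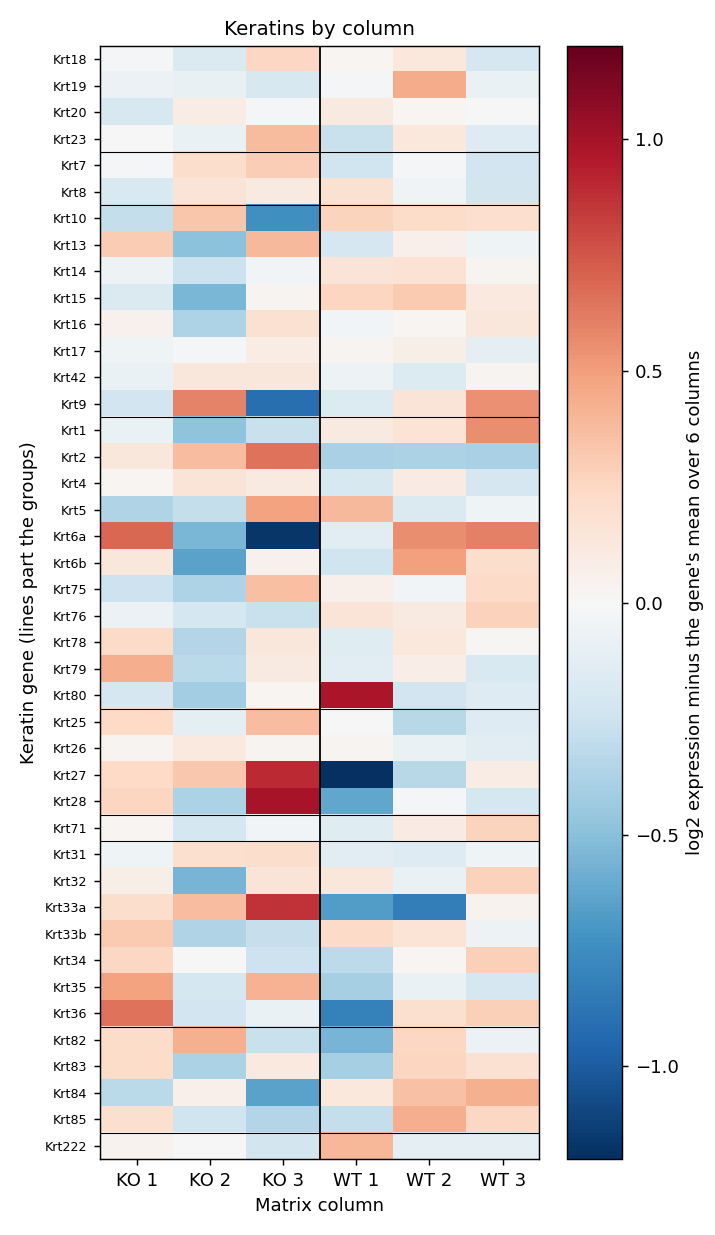
log2 expression of each keratin in each matrix column minus the gene's mean over the 6 columns (colour), with the 3 KO columns left of the 3 WT columns and lines parting the keratin groups. Krt6a and Krt10 are low in KO 3, stratified keratins such as Krt15 and Krt6b are low in KO 2, and Krt27 and Krt36 are low in WT 1.

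The slide moved with the genotype of the columns. By the rank match, columns KO 2, KO 3 and WT 1 came from arrays on slide 1, WT 2 and WT 3 from slide 2, and KO 1 matched no array. Fitted on the 5 matched columns with a slide term, so that each difference rests on KO 2 and KO 3 against WT 1, 0 of 42 keratins passed after adjustment, as did 0% of the 21989 genes tested. At an unadjusted p of 0.05, 5 of 42 keratins passed, against 6.66% of all. The difference was then 0.90 for Krt2, 1.29 for Krt33a, 1.82 for Krt27, -0.42 for Krt84, -0.48 for Krt1, -0.51 for Krt15, -0.47 for Krt10, -0.29 for Krt5, -0.30 for Krt14, -0.05 for Krt8 and 0.01 for Krt18. These directions matched those without the slide term except for Krt8. They rest on columns that also entered the fit without it, so the match is no separate support. WT 1 was the lowest of the 6 columns for Krt27, and slide 2 held no KO column.

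The scanner files under their titles gave other directions. Of the 40 keratins with a value in both titled groups, 0 passed, against 0% of the 21590 genes tested, and 2 passed at an unadjusted p of 0.05, as did 4.24% of all genes. Their median was 0.18, and that of all genes 0.11. Of the stratified keratins 7 of 18 were negative, against 36.1% of all genes, and with normexp 10 of 19, against 47.9%. Of the type I inner root sheath keratins 3 of 4 were positive, and with normexp 2 of 4. Krt2 (-0.24), Krt33a (-0.44), Krt1 (0.09), Krt15 (0.34) and Krt84 (0.18) had the sign opposite to that of the matrix, while Krt27 (0.10), Krt5 (-0.24) and Krt18 (0.01) kept theirs. Krt10 kept its sign at -1.41 (SE 0.48, limma adjusted p = 0.992), a value that rests on 1 array titled KO because the spots of the others were outliers; with normexp, which kept outlier spots, it was -0.34. Krt9 and Krt20 had no value, since their spots were outliers on every array of a titled group.

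Genes whose proteins anchor, crosslink or switch on keratins leaned lower in the KO columns, and 0 of them passed after adjustment. Of 46 genes listed by role, 40 were found by symbol and 39 passed the filter. Of these 31 were negative and 8 positive, 20.5% positive against 49.3% of all genes, with a median of -0.14. With any 1 column left out 25 to 29 were negative, against 48.9% to 52.1% of all genes. The fit with the slide term gave 27 of 39 negative, against 49.4% of all genes. Scanner files under their titles gave 12 of 35 negative with the 75th percentile, against 36.1% of all genes. With normexp it was 17 of 39, against 47.9%. At an unadjusted p of 0.05, 3 of 39 passed, which is 7.69% against 4.26% of all. The desmosome genes, whose products tie keratin filaments to cell junctions, had 13 of 17 negative (median -0.17), and the hemidesmosome genes, which tie them to the basement membrane, 7 of 8 (median -0.13).

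Trp63, the transcription factor that sets up stratified epithelium and switches on Krt5 and Krt14, read 10.52, 10.14 and 10.14 in the KO columns, against 10.23, 10.42 and 10.35 in the WT columns, a difference of -0.06 (SE 0.20). Grhl1, a transcription factor of desmosome genes, read 9.99, 9.71 and 9.72 in the KO columns, against 10.61, 10.07 and 10.35 in the WT columns. Its columns did not overlap, and the difference was -0.54 (SE 0.21, limma adjusted p = 0.999). Ivl, which codes for involucrin of the cornified envelope, read 9.19, 8.55 and 8.93 in the KO columns, against 9.65, 9.24 and 9.32 in the WT columns, a difference of -0.51 (SE 0.22), again without overlap. Tgm3, a transglutaminase that crosslinks envelope and hair proteins, read 11.39, 11.50 and 11.26 in the KO columns, against 11.47, 12.30 and 11.95 in the WT columns, a difference of -0.52 (SE 0.23), with column KO 2 above WT 1; it was -0.32 without WT 2. Both Ivl and Tgm3 had a limma adjusted p of 0.999. Dsg3, a desmosomal cadherin of basal layers, read 8.36, 8.05 and 7.48 in the KO columns, against 8.52, 8.25 and 8.32 in the WT columns, a difference of -0.40 (SE 0.24), and its columns overlapped; it was -0.15 without KO 3 and -0.59 without KO 1. With the slide term the differences were -0.90 for Grhl1, -0.91 for Ivl, -0.75 for Dsg3 and -0.087 for Tgm3. On the scanner files under their titles Grhl1, Ivl, Tgm3 and Dsg3 had the opposite sign.

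**Figure D5:**
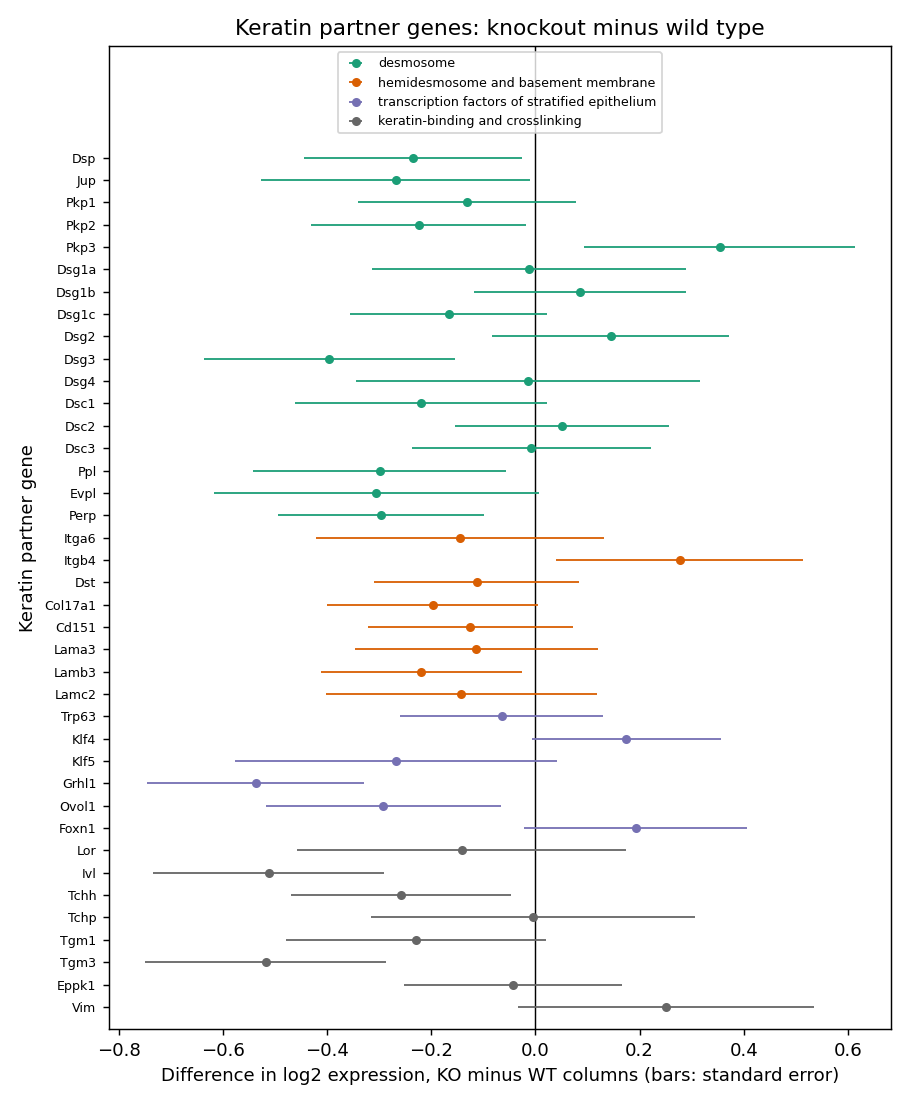
Difference in log2 expression, KO minus WT columns (points), with its standard error (lines) for the 39 keratin partner genes tested, coloured by role. Grhl1 (-0.54), Tgm3 (-0.52) and Ivl (-0.51) are the lowest, and 31 of the 39 points lie left of 0.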

How the data were processed

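Gene expression was measured on 1-colour Agilent arrays in mTECs sorted from MBD1 KO and MBD1 WT mice. The authors deposited a matrix of log2 values per probe; the sources used here name no tool for it, and its 6 columns had medians of 7.13 to 7.14. It also held the authors' log2 ratio and an FDR (an adjusted p-value) per probe. The deposited scanner files held intensity values, from Agilent Feature Extraction 10.6 per the submitters' processing notes and 10.7.3.1 per the file headers. Spots numbered 43379 per array, with 0 saturated; 73.5% to 81.3% of 41174 probes were well above background. The number of arrays limits precision.

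Genes were collapsed by symbol to the probe of highest mean, unnamed probes standing alone, kept with detection on at least 3 arrays, and fitted on the log2 values in R 4.3.3 with limma 3.58.1 (lmFit, then eBayes), with Benjamini-Hochberg adjustment (threshold 0.05). The script was tested on simulated data. Alternatives were other filters, the mean over probes, trend and robust moderation, the replicate number or slide as a block, each column left out, and the scanner files under their titles (log2 intensity with floor 1 minus the 75th percentile, or normexp with offset 50 and quantile normalization). Members, lists and tests were chosen with earlier results of these data known. Given column by column were Krt5, Krt14, Krt8, Krt18, Krt1, Krt10, Krt2, Krt15, Krt17 and Krt19, the 6 keratins of smallest p, Trp63 and the 4 partner genes of smallest p; other keratins shown in every column were picked after their values were seen. With 3 arrays per group no exact permutation test that counts both directions can go below 0.1.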

Additional observations from a re-analysis of the deposited data

How the results depend on the processing

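The count of 0 keratins and 0 partner genes passing held under all 14 alternatives, with a smallest keratin adjusted p between 0.298 and 1.0. Over all genes, where 36 passed, the count was 19 with no filter on dim probes and 0 with the slide as a block (1464 at an unadjusted p of 0.05) or on the scanner files under their titles, with the 75th percentile (915) or with normexp (658); it ran from 17 to 56 with a column left out (17 without WT 2, 56 without KO 3). The numbers in the column names did not pair the samples (correlations of deviations of -0.28, -0.18 and -0.33 for same-numbered columns); with the replicate block 58 genes and 0 keratins passed. The median keratin difference ran from -0.07 to 0.03 over the matrix alternatives and under the titles was 0.18 with the 75th percentile (all genes 0.11) and 0.054 with normexp (all genes 0.013). Mbd1 did not pass with the slide as a block (-3.22, adjusted p = 0.0760). The normexp setting used the median spot signal, as the files used here hold no mean signal. It was added after the data were seen. So were the counts for stratified keratins, type I inner root sheath keratins and partner genes under each alternative.

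Under the titles with the 75th percentile, these turned sign: Krt14 0.041, Krt8 -0.33, Krt1 0.086, Krt2 -0.24, Krt15 0.34, Krt17 -0.014, Krt19 0.39, Krt33a -0.44, Krt84 0.18, Trp63 0.16, Grhl1 0.33, Ivl 0.13, Tgm3 0.35, Dsg3 0.17 and Mbd1 1.59. With normexp they were Krt8 -0.28, Krt1 0.042, Krt2 -0.37, Krt15 0.25, Krt17 -0.077, Krt19 0.14, Krt33a -0.41, Krt27 -0.050, Krt84 0.16, Trp63 0.090, Grhl1 0.22, Ivl 0.020, Tgm3 0.26, Dsg3 0.086 and Mbd1 0.84. At the 75th percentile setting Krt8 had a value only on KO 3 among the arrays titled KO, since its spots on the others were outliers. Krt17 and Krt19 had none on the array titled KO 2. With the slide as a block Krt8 read -0.054 and Krt17 -3.0e-04. With a column left out, differences near 0 crossed it: Krt5 ran from -0.38 to 0.060, Krt8 from -0.047 to 0.16, Krt18 from -0.081 to 0.13 and Krt17 from -0.046 to 0.047. The titles name other arrays for each genotype, and beyond that the cause was not tested.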
